A study of Rattus norvegicus with 6 samples.

Results

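Toll-like receptors, their signalling proteins, the NF-kB transcription factors with their inhibitors, and the inflammasome were described in the lesion core of the injured rat spinal cord. The module was set as a list of 39 gene symbols, and a member was any row of the deposited count table carrying 1 of them. Of these, 37 were found among 33455 genes: 10 receptors, 12 adaptors and kinases, 5 NF-kB subunits, 5 feedback inhibitors, 4 inflammasome genes and 1 target gene. Nlrp3 and Pycard were not matched by symbol. All 37 passed the filter on low counts.

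The tissue came from wild type Norway rats with a contusion of the spinal cord at T9, a thoracic segment. The Piezo Gel+US group (n = 3) had ultrasound together with the piezoelectric gel under study, a material that turns mechanical strain into electric charge, and the Gel+US group (n = 3) had ultrasound with a gel whose composition the labels do not describe. Both groups carried the injury and both were stimulated at 100 Hz and 1.0 W/cm2 for 10 min a day over 4 weeks, so neither an uninjured cord nor an injured cord without ultrasound serves as a baseline here. Strain, sex and age are not given in the sources used here. A piece of about 5 mm3 from the lesion centre holds many cell types, and a lower count in such bulk tissue can come from fewer cells of a type or from less RNA per cell, which cannot be told apart. Polyadenylated RNA was counted per gene, with totals between 17212653 and 21436820 counts per library. Markers of the labelled tissue were found in every library: 8 oligodendrocyte markers summed to between 25400 and 52200 TPM in Piezo Gel+US and between 23400 and 42400 TPM in Gel+US (TPM being counts per gene length, scaled to a fixed total), and 7 astrocyte markers, Gfap not among them, to between 1130 and 4340 TPM in Piezo Gel+US and between 2440 and 4820 TPM in Gel+US.

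Toll-like receptors recognise microbial products and molecules released by damaged cells. Through adaptor proteins and kinases they free NF-kB, a family of dimeric transcription factors, from its inhibitors, and NF-kB in turn induces inflammatory genes and also its own inhibitors, which closes a negative feedback loop. Inflammasomes are cytosolic complexes that activate caspase-1, which matures interleukin-1 beta and cleaves gasdermin D into a membrane pore. In the injured spinal cord these pathways are known chiefly from microglia, infiltrating macrophages and neutrophils, with contributions from astrocytes and endothelium.

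No member passed the test of a difference between Piezo Gel+US and Gel+US. By edgeR's quasi-likelihood test with Benjamini-Hochberg adjustment 0 of 37 members were called at an adjusted p below 0.05, and the lowest adjusted p among them was 0.994. Of all 17066 genes tested 0 were called (0.0%), so the absence of calls is shared with the background. At an unadjusted p below 0.05 there were 0 members, against 359 of all genes (2.1%). DESeq2 also called 0 members, and 0 members lay at that unadjusted level, against 2.81% of all genes. Limma-voom with quality weights called 0 members as well and had 5 of 37 at the unadjusted level, near the 14.1% of all genes in that fit. The 2 groups overlapped for every member: 0 of 37 had all Piezo Gel+US libraries above or below all Gel+US libraries in CPM, against 6.81% of all genes tested (4.08% above and 2.73% below). CPM is the count scaled to a common library total. The median log2 fold change of the members was -0.024, close to the -0.021 of all genes, with 18 members higher and 19 lower in Piezo Gel+US. Leaving out Gel+US replicate 2 gave 27 higher members, and leaving out Gel+US replicate 3 gave 11.

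The members split by role beneath that median. All 10 receptors had a negative log2 fold change (median -0.39), while all 5 feedback inhibitors (median 0.34) and 4 of 5 NF-kB subunits (median 0.56) had a positive one. Adaptors and kinases had 8 of 12 above 0 (median 0.081) and the inflammasome genes 1 of 4 (median -0.43). Irak3, which dampens the signal, was counted with the adaptors and kinases (log2 fold change -0.33). Of 14 further tested inhibitors outside the module 8 were higher and 6 lower (median 0.017). Over all genes tested, 47.1% had a log2 fold change above 0. Members of a role share cells and libraries and are not independent of each other, so these counts are descriptions and carry no test. Limma-voom with quality weights had 6 of 10 receptors below 0 and 4 of 5 inhibitors above it. Leaving out a single library moved each role. Without Gel+US replicate 2 the receptors had 4 of 10 below 0 with a median of 0.19, and the inflammasome median was 0.091. Without Piezo Gel+US replicate 2 the medians of the receptors and the NF-kB subunits were -0.085 and 0.13. Without Gel+US replicate 3 the median of the feedback inhibitors was 0.015, with 3 of 5 above 0, and that of the adaptors and kinases was -0.028. Without Piezo Gel+US replicate 3 these last 2 medians were 0.055 and -0.030.

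**Figure D1:**
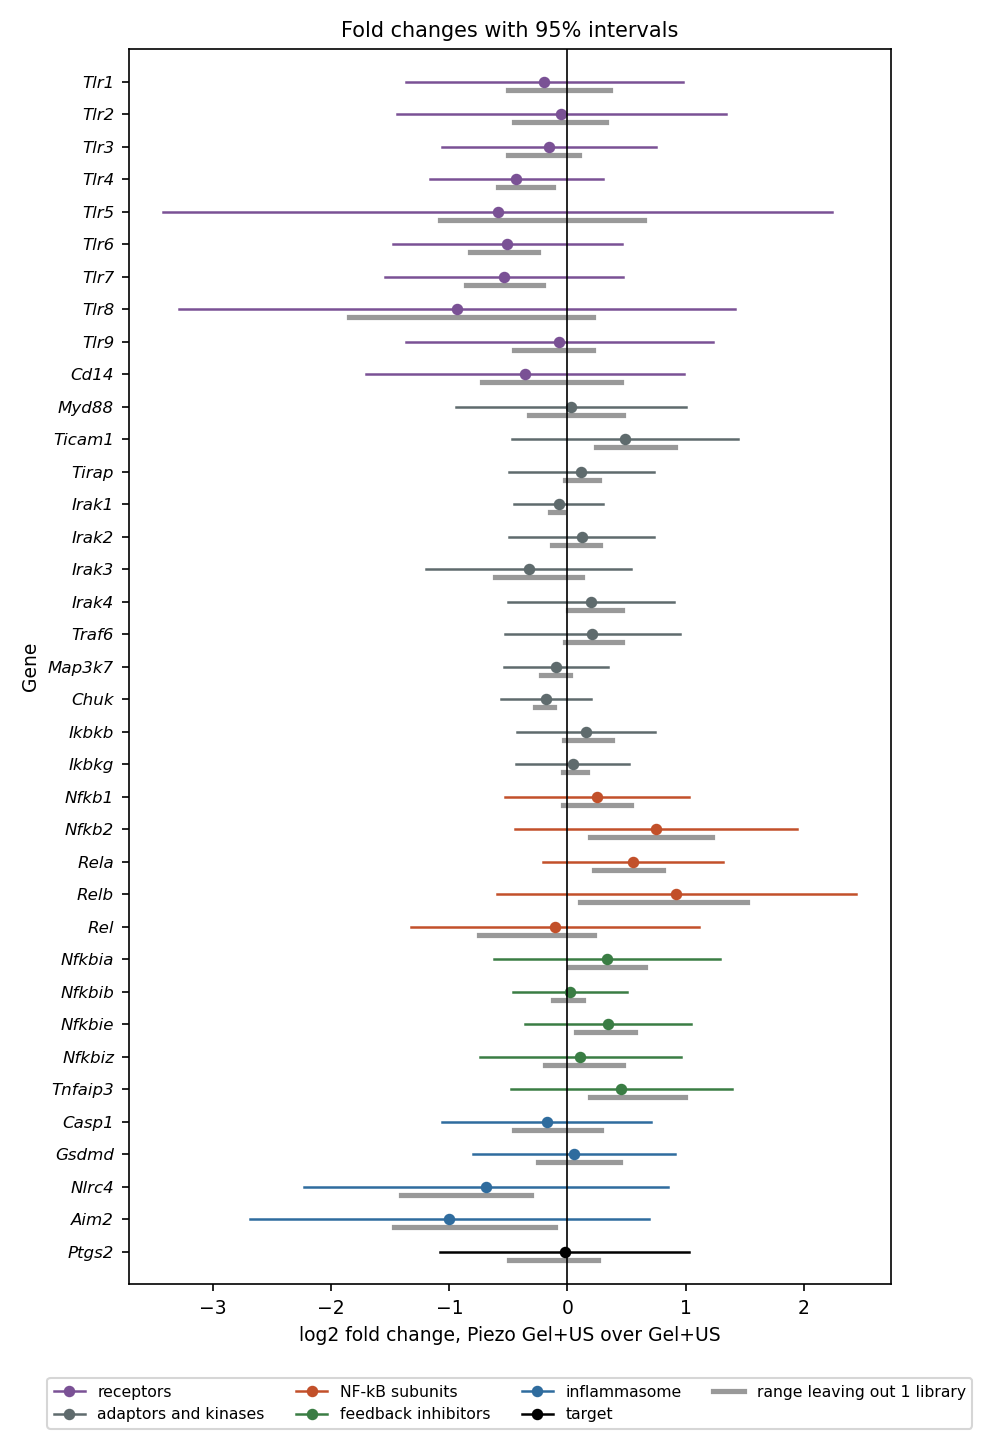
Log2 fold change of each member, Piezo Gel+US over Gel+US, on the x axis, with members grouped by role down the y axis. Points and thin lines are the estimate and 95% interval from edgeR with 3 libraries per group, and grey bars span the estimates when 1 library was left out. All receptor points lie below 0 and all feedback inhibitor points above it, while every interval includes 0.

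Per unit of gene length, the feedback inhibitor Nfkbia and the kinase Irak1 were the most abundant members. Levels between genes are given as TPM, which divides each count by the gene length and scales the sum to the same total in each library. Nfkbia averaged 111 TPM over the 6 libraries, Irak1 103 TPM and Rela, the main activating NF-kB subunit, 72.6 TPM. These levels exceeded those of 91.0%, 90.0% and 85.0% of the tested genes. The most abundant receptor was Tlr3 at 14.6 TPM, and at the low end stood Tlr5 with 1.12 TPM. The module as a whole summed to 695, 708 and 779 TPM in Piezo Gel+US replicates 1 to 3, against 696, 802 and 546 TPM in Gel+US replicates 1 to 3. Its lowest and highest sums both belonged to Gel+US libraries, and the Piezo Gel+US sums lay between them.

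Values differed between single libraries of a group. Gel+US replicate 2 had the highest CPM of 18 of the 37 members and was lowest for 0, where 19.0% and 15.8% of all genes tested had their highest and lowest value. Gel+US replicate 3 was lowest for 20 members (26.5% of all genes), and Piezo Gel+US replicate 2 was lowest for 14 (28.4%) and highest for 9 (29.2%). That last library was lowest for 6 of 10 receptors, 6 of 12 adaptors and kinases, 1 of 5 NF-kB subunits, 0 of 5 feedback inhibitors and 1 of 4 inflammasome genes, and highest for 0, 2, 4, 2 and 0 of them. The median deviation of log2(CPM + 0.1) from the mean of the 6 libraries was -0.83 for its receptors and 0.81 for its NF-kB subunits. Leaving out 1 library at a time opened gaps between the groups for some members. Without Gel+US replicate 2, 9 members lay higher in Piezo Gel+US with no overlap (Ticam1, Tirap, Irak4, Ikbkb, Nfkb2, Rela, Relb, Tnfaip3 and Gsdmd), and 13.9% of all genes did so. Without Piezo Gel+US replicate 1, 4 members lay lower with no overlap (Tlr4, Tlr6, Chuk and Rel), as did 7.57% of all genes. Without Gel+US replicate 3 there were 3 lower (Tlr7, Irak1 and Aim2), with 6.9% of all genes. Traf6 lay higher with no overlap without Piezo Gel+US replicate 2 (7.08% of all genes), and Nfkbie without Piezo Gel+US replicate 3 (7.34%). There were 0 in either direction without Gel+US replicate 1 (11.2%).

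**Figure D2:**
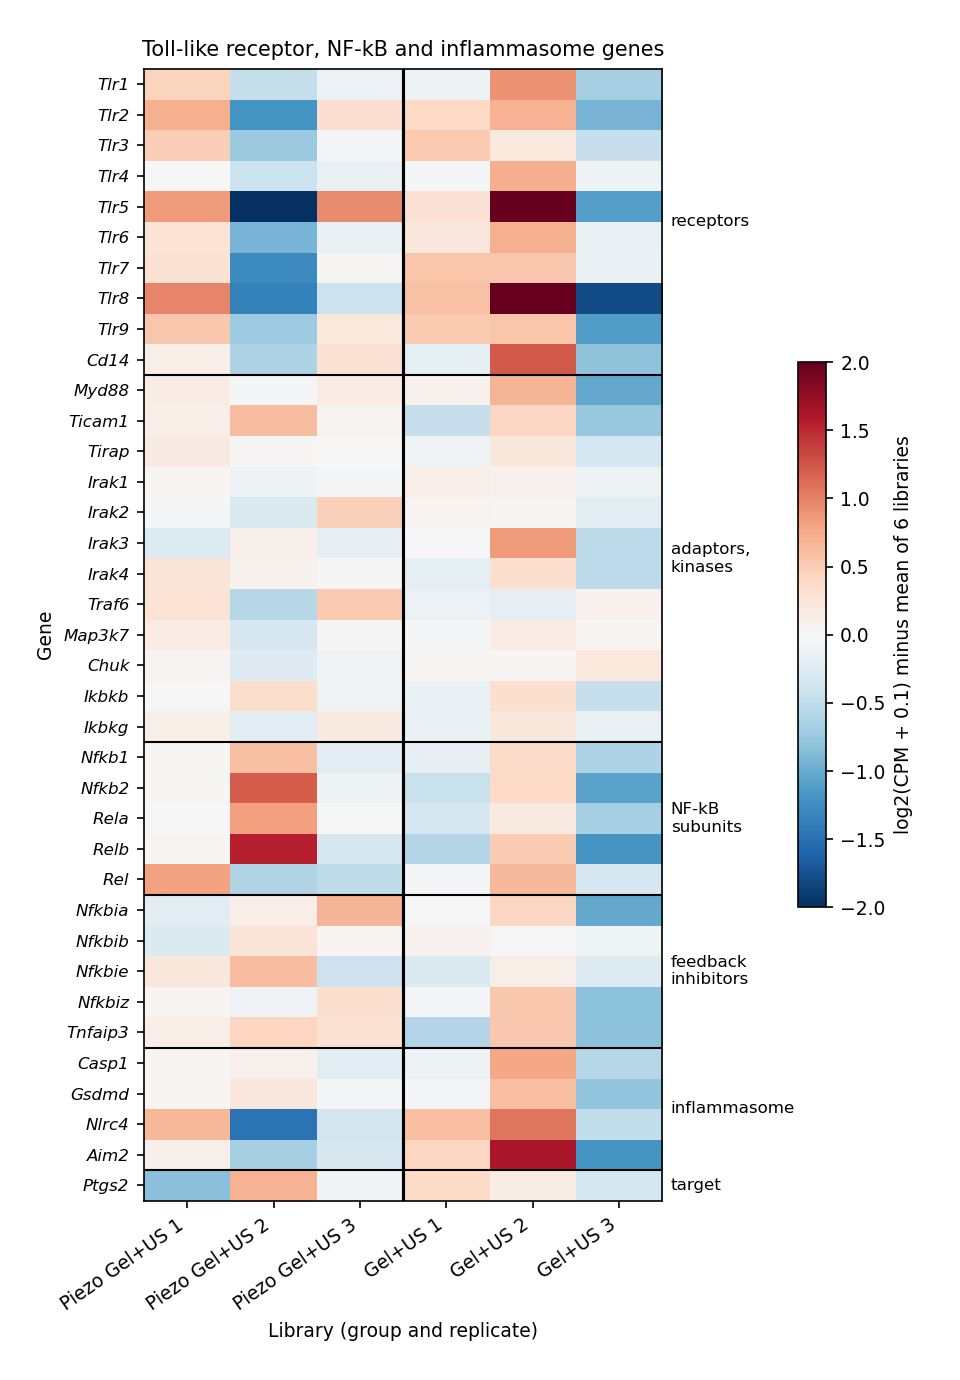
Level of each member in each library as log2(CPM + 0.1) minus the mean of the 6 libraries, with members by role down the y axis and the 3 Piezo Gel+US libraries left of the 3 Gel+US libraries. Colours end at 2 in either direction. Piezo Gel+US replicate 2 is blue for most receptors and red for Nfkb1, Nfkb2, Rela and Relb, Gel+US replicate 2 is mostly red, and Gel+US replicate 3 is mostly blue.

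Among the receptors at the cell surface, Tlr2, which recognises bacterial lipopeptides together with Tlr1 or Tlr6, was the most abundant at 10.3 TPM. Tlr2 measured 22.7, 5.94 and 17.4 CPM in Piezo Gel+US replicates 1 to 3, against 18.2, 22.3 and 7.17 CPM in Gel+US replicates 1 to 3 (log2 fold change -0.050 with a 95% interval of -1.44 to 1.34). Its lowest values stood in replicate 2 of Piezo Gel+US and replicate 3 of Gel+US, and the other 4 libraries lay within a narrow band. Tlr4, the receptor of bacterial lipopolysaccharide, measured 7.68, 5.73 and 6.93 CPM in Piezo Gel+US replicates 1 to 3, against 7.47, 12.8 and 7.22 CPM in Gel+US replicates 1 to 3 (log2 fold change -0.43 with a 95% interval of -1.16 to 0.30). Only Gel+US replicate 2 stood clear of the rest, and without it the log2 fold change was -0.12. Cd14, the co-receptor that hands lipopolysaccharide to the Tlr4 complex, measured 6.99, 4.18 and 7.92 CPM in Piezo Gel+US replicates 1 to 3, against 5.61, 15.2 and 3.66 CPM in Gel+US replicates 1 to 3 (log2 fold change -0.36 with a 95% interval of -1.71 to 0.99). It too was highest in Gel+US replicate 2, without which its log2 fold change was 0.45.

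The partners of Tlr2 were less abundant. Tlr6 measured 5.76, 2.46 and 4.29 CPM in Piezo Gel+US replicates 1 to 3, against 5.61, 7.89 and 4.31 CPM in Gel+US replicates 1 to 3 (log2 fold change -0.51 with a 95% interval of -1.48 to 0.47). Its log2 fold change ran from -0.83 to -0.25 when 1 library was left out and stayed below 0 in those 6 fits. Tlr1 measured 5.6, 2.92 and 3.78 CPM in Piezo Gel+US replicates 1 to 3, against 3.81, 7.72 and 2.56 CPM in Gel+US replicates 1 to 3 (log2 fold change -0.19 with a 95% interval of -1.36 to 0.98). In the count table the Tlr1 and Tlr6 genes lie close together on the minus strand, while the GRCr8 build, used below for promoters, has both on the plus strand. The count table places Tlr1 at bases 21935869 to 21938497 and Tlr6 at bases 21952804 to 21960343 of 1 sequence, in a genome build that the sources used here do not give. They are related in sequence, so reads could have been split between them. Tlr5, the flagellin receptor, had 38, 1 and 42 counts in Piezo Gel+US replicates 1 to 3, against 27, 83 and 9 counts in Gel+US replicates 1 to 3. These are 2.03, 0.0503 and 2.17 CPM in Piezo Gel+US replicates 1 to 3, against 1.35, 4.61 and 0.451 CPM in Gel+US replicates 1 to 3 (log2 fold change -0.59 with a 95% interval of -3.42 to 2.24). It had the widest interval of the 10 receptors, and without Gel+US replicate 2 its log2 fold change was 0.65.

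The endosomal receptors held more than 50% of the Toll-like receptor RNA in each library. Tlr3, Tlr7, Tlr8 and Tlr9 together made up 59.7%, 57.5% and 57.2% of the summed Toll-like receptor TPM in Piezo Gel+US replicates 1 to 3, against 65.2%, 56.9% and 60.8% in Gel+US replicates 1 to 3. Piezo Gel+US shares lay inside the range of the Gel+US shares. Tlr3, which binds viral and other double-stranded RNA, measured 33.1, 14 and 23.1 CPM in Piezo Gel+US replicates 1 to 3, against 33.9, 27.2 and 17.1 CPM in Gel+US replicates 1 to 3 (log2 fold change -0.16 with a 95% interval of -1.07 to 0.75). Tlr7, a sensor of single-stranded RNA that is active in microglia, measured 22.4, 7.55 and 18.7 CPM in Piezo Gel+US replicates 1 to 3, against 27.1, 26.9 and 16.7 CPM in Gel+US replicates 1 to 3 (log2 fold change -0.54 with a 95% interval of -1.55 to 0.47). In both genes Piezo Gel+US replicate 2 was lowest and Gel+US replicate 3 was second lowest. The log2 fold change of Tlr7 stayed below 0 in the 6 fits that left out a library, from -0.86 to -0.20.

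Tlr8, a relative of Tlr7, measured 7.74, 1.46 and 2.85 CPM in Piezo Gel+US replicates 1 to 3, against 5.86, 16.2 and 1.05 CPM in Gel+US replicates 1 to 3 (log2 fold change -0.94 with a 95% interval of -3.29 to 1.42). It varied 15.4-fold between the highest and the lowest library, and both of those were Gel+US libraries. Without Gel+US replicate 2 its log2 fold change was 0.22. Tlr9, which detects unmethylated CpG DNA, measured 7.15, 2.92 and 5.69 CPM in Piezo Gel+US replicates 1 to 3, against 7.11, 7.22 and 2.21 CPM in Gel+US replicates 1 to 3 (log2 fold change -0.070 with a 95% interval of -1.37 to 1.23). Its 2 low libraries were again replicate 2 of Piezo Gel+US and replicate 3 of Gel+US.

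**Figure D3:**
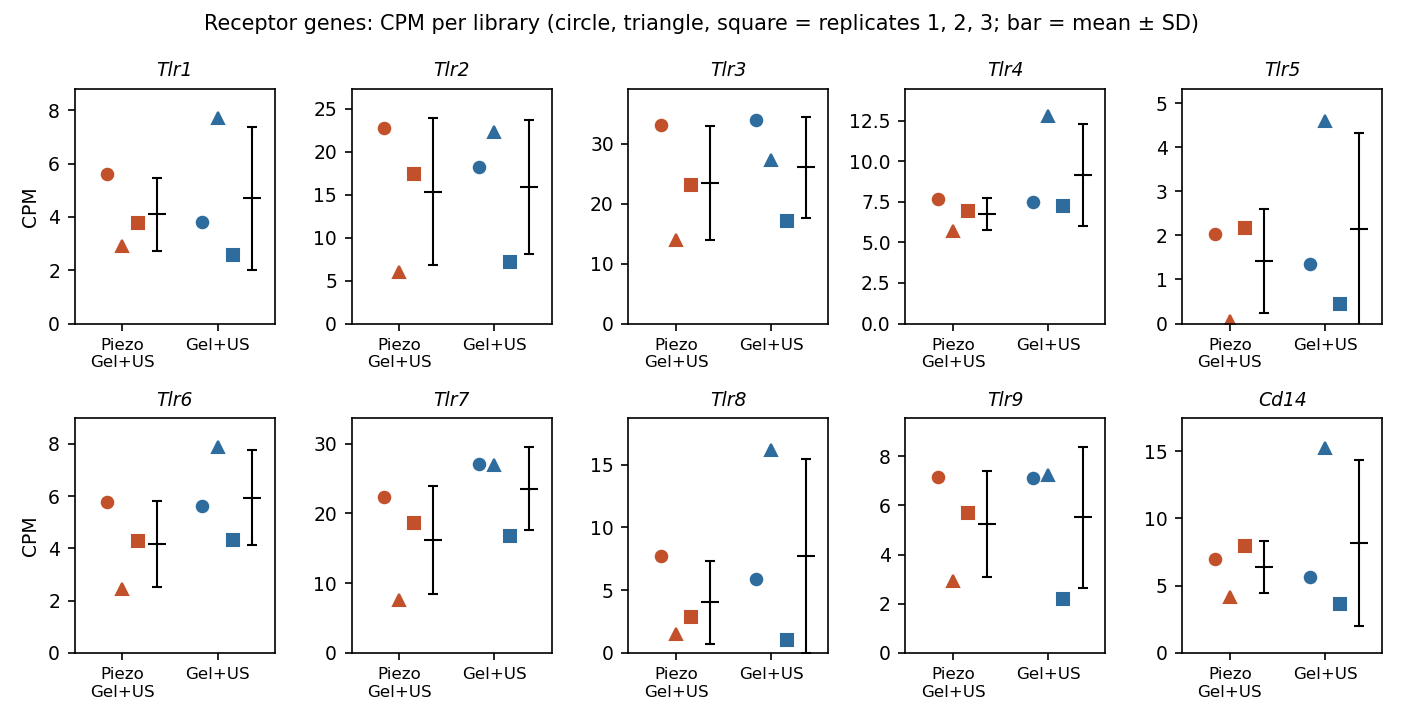
CPM of the 10 receptor genes in each library, with Piezo Gel+US at the left and Gel+US at the right of each panel. Circles, triangles and squares are replicates 1, 2 and 3, and bars give the mean ± SD of 3 libraries, cut at 0 for Tlr5 and Tlr8. The groups overlap in each panel, and the triangle of Piezo Gel+US is the lowest Piezo Gel+US value in all 10.

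Receptor levels were set beside marker genes of several cell types, although bulk RNA does not show which cells carried the receptors. Summed over the 10 receptors, the level was 83.3, 30.8 and 69.9 TPM in Piezo Gel+US replicates 1 to 3, against 82.3, 101 and 47.4 TPM in Gel+US replicates 1 to 3. The 9 microglia markers found, among them P2ry12 and Tmem119, summed to 627, 263 and 534 TPM in Piezo Gel+US and 715, 614 and 452 TPM in Gel+US. The 9 macrophage and monocyte markers other than Cd14 summed to 713, 173 and 570 TPM in Piezo Gel+US and 625, 601 and 392 TPM in Gel+US. The 2 lowest libraries were the same for the receptors and for both marker lists, namely replicate 2 of Piezo Gel+US and replicate 3 of Gel+US. All 9 microglia markers had a log2 fold change below 0 (median -0.29), as did 7 of the 9 tested macrophage and monocyte markers. These last 9 include the receptor Cd14, and their median of -0.36 is the value of Cd14 itself. Values below 0 were not particular to these cells, as all 7 astrocyte, all 10 neuron and all 8 tested T and NK cell markers were also below 0. Of the Schwann cell markers 0 of 9 were below 0, and of the tested neutrophil markers 3 of 9. Over all genes tested, 47.1% had a log2 fold change above 0. The 10 neutrophil markers found summed to 495, 373 and 740 TPM in Piezo Gel+US and 368, 968 and 26.1 TPM in Gel+US, and the 9 T and NK cell markers to 115, 37.0 and 64.8 TPM in Piezo Gel+US and 81.8, 244 and 35.7 TPM in Gel+US. Both were highest in Gel+US replicate 2 and lowest in Gel+US replicate 3. No marker found of the microglia, macrophage and monocyte, neutrophil, or T and NK cell lists had 0 counts in all libraries. Their part in the receptor levels was not tested.

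The adaptors and kinases varied less. Irak1, the kinase recruited to the receptor complex by Myd88, measured 169, 152 and 159 CPM in Piezo Gel+US replicates 1 to 3, against 178, 174 and 153 CPM in Gel+US replicates 1 to 3 (log2 fold change -0.075 with a 95% interval of -0.45 to 0.30). The 6 libraries lay within 1.17-fold of each other, the narrowest range of the 37 members. Ticam1, the adaptor of Tlr3 and of endosomal Tlr4 signalling also called TRIF, measured 4.86, 6.84 and 4.55 CPM in Piezo Gel+US replicates 1 to 3, against 3.16, 5.89 and 2.56 CPM in Gel+US replicates 1 to 3 (log2 fold change 0.49 with a 95% interval of -0.47 to 1.45). It had the highest fold change of this role and was highest in Piezo Gel+US replicate 2, and its log2 fold change ran from 0.25 to 0.91 when 1 library was left out. Myd88, the adaptor shared by nearly all Toll-like receptors, varied 3.30-fold, with the Piezo Gel+US libraries between 18.1 and 20.5 CPM, against 8.97 CPM in the lowest and 29.6 CPM in the highest of the Gel+US libraries (log2 fold change 0.031 with a 95% interval of -0.94 to 1.0). Irak3, a kinase relative that dampens the signal, averaged 13.3 ± 1.83 CPM in Piezo Gel+US and 16.7 ± 8.21 CPM in Gel+US (SD, n = 3 each; log2 fold change -0.33 with a 95% interval of -1.20 to 0.54).

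The other 8 genes of this role had log2 fold changes between -0.18 and 0.21. They were Tirap, the bridging adaptor of Tlr2 and Tlr4, the kinases Irak2 and Irak4, the ubiquitin ligase Traf6, the kinase Map3k7 (TAK1), and the subunits Chuk, Ikbkb and Ikbkg of the IkB kinase complex that marks the inhibitors for degradation. Chuk averaged 46.6 ± 4.95 CPM in Piezo Gel+US and 52.8 ± 3.86 CPM in Gel+US (SD, n = 3 each) and had the lowest of these fold changes (log2 fold change -0.18 with a 95% interval of -0.56 to 0.20). Traf6 averaged 12.9 ± 4.61 CPM in Piezo Gel+US and 11.1 ± 1.14 CPM in Gel+US and had the highest (log2 fold change 0.21 with a 95% interval of -0.53 to 0.95), with its lowest value in Piezo Gel+US replicate 2. The catalytic partners Chuk and Ikbkb pointed in opposite directions, with Ikbkb at a log2 fold change of 0.15 (95% interval -0.43 to 0.74), which was -0.025 without Gel+US replicate 3. None of these intervals excluded 0.

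In the edgeR fit without a block, 3 NF-kB subunits held the lowest unadjusted p-values of the module, with Rela at 0.129, Nfkb2 at 0.179 and Relb at 0.193, each with an adjusted p of 0.994. In limma-voom with quality weights Tnfaip3, Traf6 and Ticam1 had lower p-values than these 3 genes. Rela, whose protein p65 carries the main transactivation domain of the classical pathway, measured 81.4, 142 and 79.9 CPM in Piezo Gel+US replicates 1 to 3, against 63.9, 91.7 and 50.6 CPM in Gel+US replicates 1 to 3 (log2 fold change 0.56 with a 95% interval of -0.21 to 1.32). Relb, the activating partner in the alternative pathway, measured 9.87, 28.3 and 7.6 CPM in Piezo Gel+US replicates 1 to 3, against 6.36, 13.7 and 4.16 CPM in Gel+US replicates 1 to 3 (log2 fold change 0.92 with a 95% interval of -0.60 to 2.44). Nfkb2, which encodes the precursor that is processed to the partner of Relb, measured 22.9, 52.4 and 21 CPM in Piezo Gel+US replicates 1 to 3, against 16.6, 30.0 and 10.7 CPM in Gel+US replicates 1 to 3 (log2 fold change 0.75 with a 95% interval of -0.44 to 1.95). For all 3 genes Piezo Gel+US replicate 2 was highest, Gel+US replicate 2 second and Gel+US replicate 3 lowest, so that the groups overlapped through the second replicate of Gel+US. Without Piezo Gel+US replicate 2 their log2 fold changes were 0.22 for Rela, 0.11 for Relb and 0.19 for Nfkb2, and without Gel+US replicate 2 they were 0.81, 1.52 and 1.22.

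Nfkb1, which encodes the usual partner of Rela, had the same highest and lowest libraries with a smaller range. It measured 62.5, 93.9 and 52.5 CPM in Piezo Gel+US replicates 1 to 3, against 54.9, 80.6 and 40.2 CPM in Gel+US replicates 1 to 3 (log2 fold change 0.25 with a 95% interval of -0.53 to 1.03), and without Piezo Gel+US replicate 2 its log2 fold change was -0.035. Rel, the lymphoid and myeloid subunit c-Rel, differed from the other 4 at 6.56, 2.41 and 2.59 CPM in Piezo Gel+US replicates 1 to 3, against 3.66, 5.89 and 2.91 CPM in Gel+US replicates 1 to 3 (log2 fold change -0.11 with a 95% interval of -1.32 to 1.11). It was lowest where Relb was highest, in Piezo Gel+US replicate 2. Of the summed TPM of the 5 subunits, Rela made up 49.6%, 49.1% and 54.4% in Piezo Gel+US replicates 1 to 3, against 49.7%, 46.6% and 52.5% in Gel+US replicates 1 to 3. Relb made up 6.64%, 10.8% and 5.71% in Piezo Gel+US, against 5.46%, 7.65% and 4.76% in Gel+US. The share of Nfkb1 was 26.9%, 23.0% and 25.2% in Piezo Gel+US, against 30.1%, 28.9% and 29.5% in Gel+US. It did not overlap between the groups, but this share was singled out after its values were seen and was not tested.

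Between libraries of equal replicate number, Nfkb1, Nfkb2, Rela and Relb were each higher in Piezo Gel+US in all 3 pairs, as were Ticam1 and Ikbkb. That is 6 of 37 members, and 14.3% of all genes tested were higher in all 3 pairs. The share of members is thus near the background. The 4 NF-kB subunits among them share their highest and their lowest library, so they are not separate observations, and no label gives the meaning of a replicate number. No member was lower in all 3 pairs, against 14.7% of all genes. With the replicate number as a block in the edgeR fit the log2 fold changes were 0.55 for Rela (95% interval 0.15 to 0.94), 0.85 for Relb (0.31 to 1.39) and 0.75 for Nfkb2 (0.28 to 1.22). These intervals lie above 0, and these 3 were the members with an unadjusted p below 0.05 in that fit, as were 5.78% of all genes, yet the adjusted p of each was 0.855 and no gene in the table was called.

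**Figure D4:**
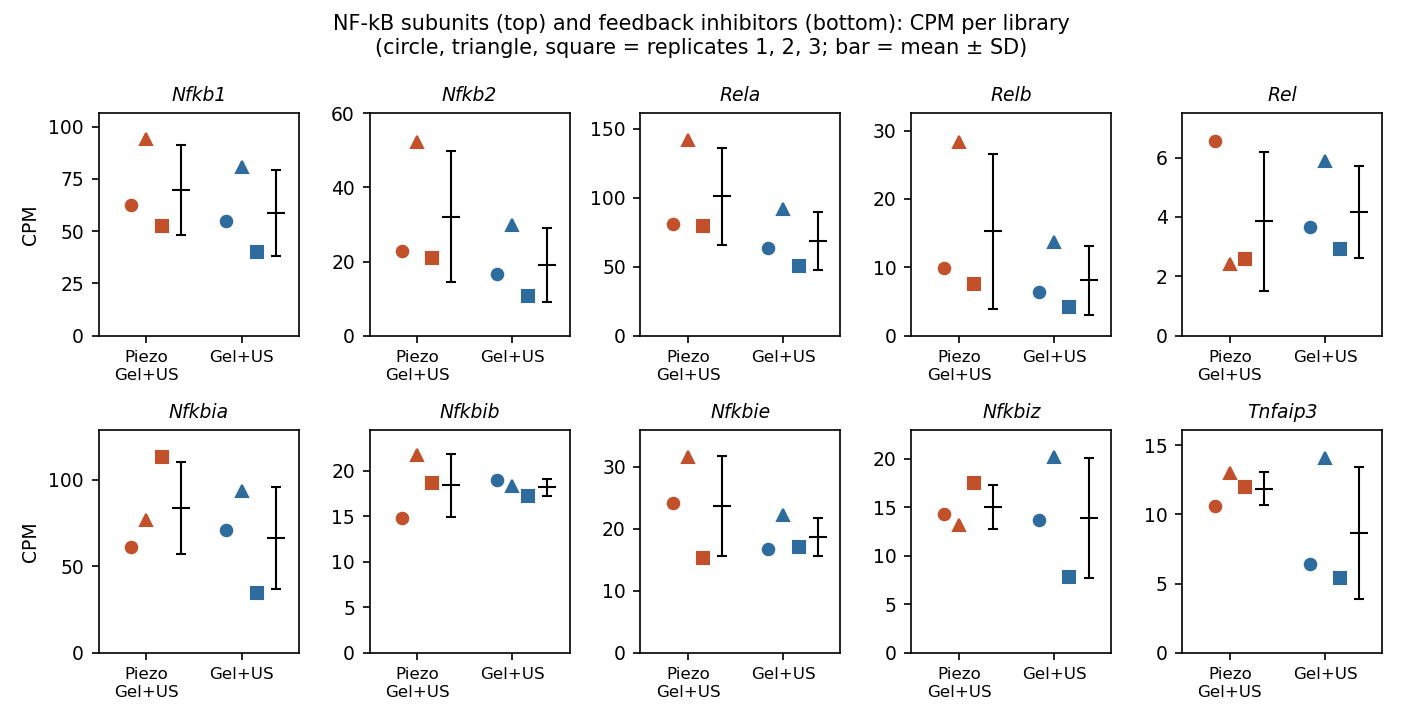
CPM of the 5 NF-kB subunits in the top row and the 5 feedback inhibitors in the bottom row, with Piezo Gel+US at the left and Gel+US at the right of each panel. Circles, triangles and squares are replicates 1, 2 and 3, and bars give the mean ± SD of 3 libraries. For Nfkb1, Nfkb2, Rela and Relb each Piezo Gel+US symbol lies above the Gel+US symbol of the same shape, while the groups overlap. Of all genes tested, 14.3% were higher in Piezo Gel+US in all 3 pairs of equal replicate number.

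Other cell types also stood apart in the library with the highest NF-kB subunit levels. The 5 subunits summed to 141, 229 and 135 TPM in Piezo Gel+US replicates 1 to 3, against 116, 158 and 92.1 TPM in Gel+US replicates 1 to 3. The 9 Schwann cell markers found summed to 10500, 79000 and 17900 TPM in Piezo Gel+US and 7030, 9050 and 11000 TPM in Gel+US. The 9 fibroblast markers, such as Col1a1 and Pdgfra, summed to 705, 3370 and 1070 TPM in Piezo Gel+US and 530, 3410 and 492 TPM in Gel+US. The 2 libraries highest for the fibroblast markers were also the 2 highest for the subunits, and the library highest for the Schwann cell markers was the highest for the subunits. The 10 neuron markers were lowest there, at 6830, 1420 and 3560 TPM in Piezo Gel+US, against 6030, 1870 and 15000 TPM in Gel+US. The 8 endothelial markers summed to 451, 703 and 609 TPM in Piezo Gel+US and 654, 492 and 400 TPM in Gel+US. They shared the highest and the lowest library of the subunits, but not the second highest. Their part in the subunit levels was not tested.

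**Figure D5:**
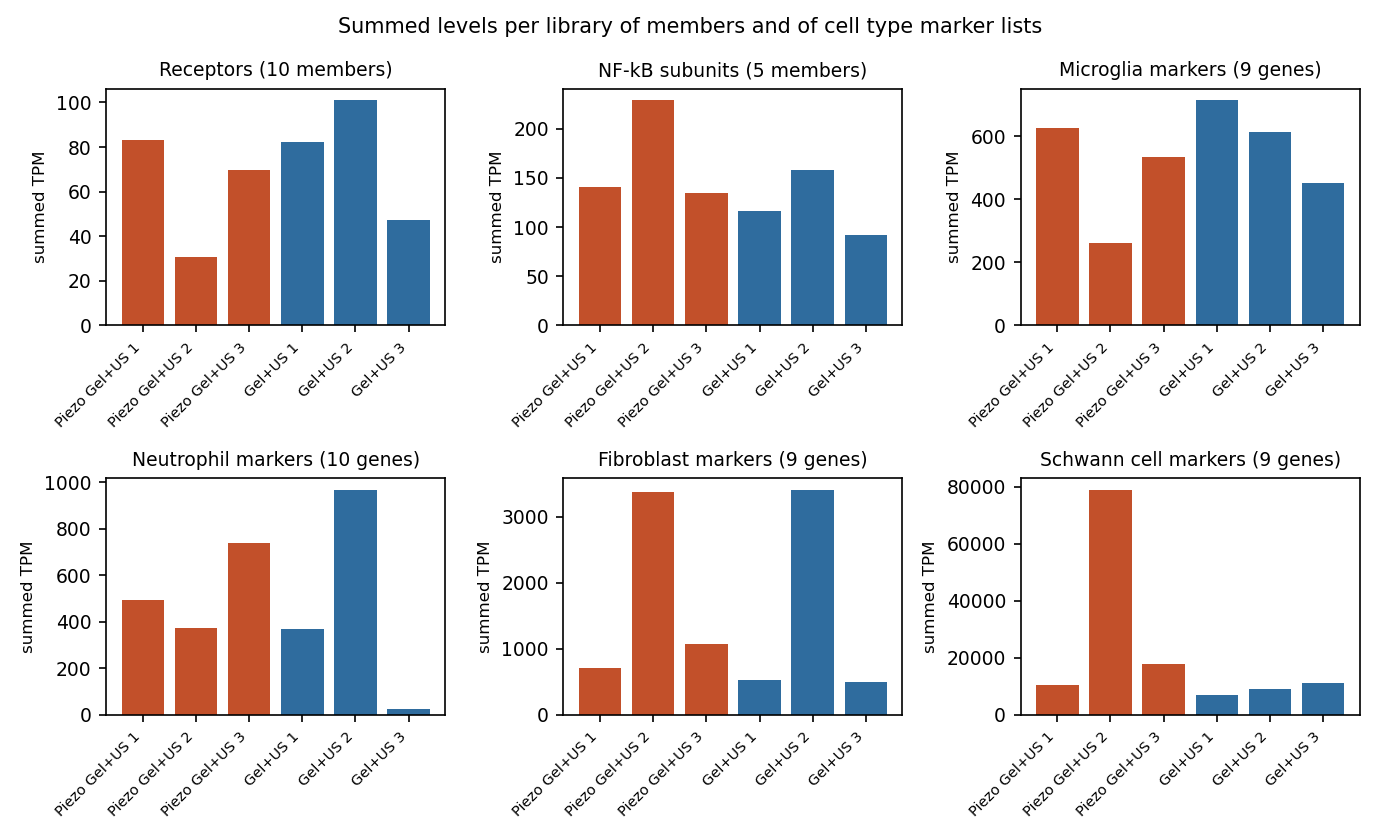
Summed TPM per library of the 10 receptors, the 5 NF-kB subunits and 4 cell type marker lists, with Piezo Gel+US libraries left of Gel+US libraries in each panel and every axis starting at 0. Receptors and microglia markers are lowest in Piezo Gel+US replicate 2, where the NF-kB subunits and Schwann cell markers are highest, and fibroblast markers are high in replicate 2 of both groups.

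The genes listed as feedback inhibitors lay higher on average in Piezo Gel+US, and Gel+US replicate 3 was the lowest library for 3 of the 5. Whether NF-kB induced them in this tissue was not tested. Nfkbia encodes IkB alpha, which holds NF-kB in the cytoplasm and is itself induced by it. It measured 61, 76.8 and 113 CPM in Piezo Gel+US replicates 1 to 3, against 71.1, 93.4 and 34.5 CPM in Gel+US replicates 1 to 3 (log2 fold change 0.34 with a 95% interval of -0.62 to 1.29). Tnfaip3, the ubiquitin-editing enzyme A20 that ends signalling, measured 10.6, 13 and 12 CPM in Piezo Gel+US replicates 1 to 3, against 6.41, 14.1 and 5.41 CPM in Gel+US replicates 1 to 3 (log2 fold change 0.46 with a 95% interval of -0.48 to 1.39). Its 3 Piezo Gel+US values lay close together and inside the Gel+US range, and without Gel+US replicate 2 the log2 fold change was 0.99. Nfkbiz, a nuclear IkB protein that tunes secondary response genes, measured 14.3, 13.2 and 17.5 CPM in Piezo Gel+US replicates 1 to 3, against 13.7, 20.2 and 7.82 CPM in Gel+US replicates 1 to 3 (log2 fold change 0.11 with a 95% interval of -0.74 to 0.96). For Nfkbia, Tnfaip3 and Nfkbiz the lowest library was Gel+US replicate 3, without which the log2 fold changes were 0.015, 0.19 and -0.19.

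The 2 other inhibitors behaved differently from these. Nfkbie, which encodes IkB epsilon, measured 24.1, 31.5 and 15.3 CPM in Piezo Gel+US replicates 1 to 3, against 16.7, 22.2 and 17.1 CPM in Gel+US replicates 1 to 3 (log2 fold change 0.34 with a 95% interval of -0.36 to 1.04). It was highest in Piezo Gel+US replicate 2 and lowest in Piezo Gel+US replicate 3. Nfkbib, which encodes IkB beta, measured 14.8, 21.7 and 18.7 CPM in Piezo Gel+US replicates 1 to 3, against 19, 18.3 and 17.2 CPM in Gel+US replicates 1 to 3 (log2 fold change 0.021 with a 95% interval of -0.46 to 0.50). Within 1.47-fold across libraries it was the steadiest of the 5.

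Several subunit and inhibitor genes, Nfkbia and Tnfaip3 among them, are known targets of NF-kB itself, and the promoters of the module were searched for its binding consensus. Each RefSeq promoter window in the GRCr8 build spans 250 bases before to 50 after the annotated start, and 32 of the 39 listed symbols had one, Nlrp3 and Pycard included, although neither has a row of counts under its symbol. The consensus of 10 bases known as the kB site was searched on both strands, with overlapping matches kept. It was present in 4 of 5 feedback inhibitor promoters and in 3 of 4 NF-kB subunit promoters, against 1 of 10 receptors, 2 of 8 adaptors and kinases, 0 of 4 inflammasome genes (Nlrp3, Pycard, Casp1 and Aim2) and 0 of 1 target gene. That is 10 of 32 symbols (31.2%), where 4.18% of 33469 windows in the table held a match. A match describes these letters and is not evidence of binding, and a window without one says nothing about the factor. Shown are the windows of 2 subunits and 2 inhibitors, for Nfkb1 (chr2:226805413-226805712, minus strand), Nfkb2 (chr1:255108124-255108423, plus strand), Nfkbia (chr6:78597023-78597322, minus strand) and Tnfaip3 (chr1:15543930-15544229, minus strand), since these 2 roles hold most of the matches. Capitals mark the kB matches, and each window reads 5′ to 3′ on the gene's strand.
Nfkb1: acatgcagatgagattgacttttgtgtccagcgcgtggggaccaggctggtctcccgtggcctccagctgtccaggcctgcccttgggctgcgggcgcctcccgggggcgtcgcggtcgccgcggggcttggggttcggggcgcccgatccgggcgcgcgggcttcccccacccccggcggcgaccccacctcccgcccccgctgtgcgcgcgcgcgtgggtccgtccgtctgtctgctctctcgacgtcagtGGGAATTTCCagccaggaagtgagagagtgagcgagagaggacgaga
Nfkb2: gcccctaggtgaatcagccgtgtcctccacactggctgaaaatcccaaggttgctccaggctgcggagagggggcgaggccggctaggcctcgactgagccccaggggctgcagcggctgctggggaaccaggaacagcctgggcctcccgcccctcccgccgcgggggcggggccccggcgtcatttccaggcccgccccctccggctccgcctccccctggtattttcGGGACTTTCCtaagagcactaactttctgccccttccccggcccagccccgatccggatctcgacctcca
Nfkbia: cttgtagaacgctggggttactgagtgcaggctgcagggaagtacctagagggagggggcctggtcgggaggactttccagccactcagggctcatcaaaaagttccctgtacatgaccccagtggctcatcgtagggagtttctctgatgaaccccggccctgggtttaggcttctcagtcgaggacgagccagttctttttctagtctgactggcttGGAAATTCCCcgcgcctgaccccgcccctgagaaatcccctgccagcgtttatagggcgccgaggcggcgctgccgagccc
Tnfaip3: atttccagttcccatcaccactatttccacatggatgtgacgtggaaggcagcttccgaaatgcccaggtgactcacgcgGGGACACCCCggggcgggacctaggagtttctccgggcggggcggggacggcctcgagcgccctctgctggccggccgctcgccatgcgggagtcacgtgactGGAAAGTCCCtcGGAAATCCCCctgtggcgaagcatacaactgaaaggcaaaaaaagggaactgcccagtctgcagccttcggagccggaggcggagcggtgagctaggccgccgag

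Counted from the annotated start, with no position 0, the match began at position 4 in Nfkb1, at -20 in Nfkb2 and at -31 in Nfkbia. Tnfaip3 had 3 matches, beginning at -170, -67 and -55. Nfkbiz carried GGGAATTTCC at -13, the same 10 letters as Nfkb1, and Nfkbie carried GGGGGATTCC at -164. Rel held the overlapping pair GGGAAATCCC and GGAAATCCCC, and Tlr2, the only receptor with a match, the overlapping pair GGGGAATTCC and GGGAATTCCC. Rela and Nfkbib had no match in the window, and Relb had no window.

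Of the 4 inflammasome genes matched by symbol, Casp1, the protease of the complex, was the most abundant at 17.9 TPM. It measured 10.9, 11.2 and 9 CPM in Piezo Gel+US replicates 1 to 3, against 9.82, 18.2 and 7.07 CPM in Gel+US replicates 1 to 3 (log2 fold change -0.17 with a 95% interval of -1.06 to 0.71). Gsdmd, which encodes gasdermin D, measured 12, 13.6 and 11.4 CPM in Piezo Gel+US replicates 1 to 3, against 11.4, 17.7 and 6.72 CPM in Gel+US replicates 1 to 3 (log2 fold change 0.053 with a 95% interval of -0.80 to 0.91). Both were highest in Gel+US replicate 2 and lowest in Gel+US replicate 3, with the Piezo Gel+US libraries close together between them. The SD of Gsdmd was 1.14 CPM in Piezo Gel+US and 5.49 CPM in Gel+US (n = 3 each).

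The sensors were scarcer and more variable. Aim2, the sensor of cytosolic DNA, measured 2.72, 1.56 and 2.02 CPM in Piezo Gel+US replicates 1 to 3, against 3.46, 8.11 and 1.05 CPM in Gel+US replicates 1 to 3, and its mean gave the lowest log2 fold change of all 37 members (log2 fold change -1.0 with a 95% interval of -2.69 to 0.69). The gap rested on Gel+US replicate 2, without which the log2 fold change was -0.11. Nlrc4, which with its NAIP partners responds to bacterial proteins, measured 6.14, 1.31 and 2.95 CPM in Piezo Gel+US replicates 1 to 3, against 5.91, 8.16 and 2.71 CPM in Gel+US replicates 1 to 3 (log2 fold change -0.69 with a 95% interval of -2.23 to 0.85). It was lowest in Piezo Gel+US replicate 2, without which the log2 fold change was -0.31. Nlrp3 is not analysed here. For Pycard, the table holds 1 gene without a symbol whose deposited description names the adaptor ASC and whose protein match is mouse Pycard. That gene measured 10.6, 3.87 and 5.79 CPM in Piezo Gel+US replicates 1 to 3, against 8.32, 17.7 and 2.05 CPM in Gel+US replicates 1 to 3 (log2 fold change -0.47 with a 95% interval of -2.25 to 1.32), with the library order of Aim2 at its extremes, highest in Gel+US replicate 2 and lowest in Gel+US replicate 3. Its log2 fold change was 0.38 without Gel+US replicate 2. Its mean of 23.9 TPM was above that of Casp1.

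Ptgs2, the inducible cyclooxygenase that makes prostaglandins downstream of NF-kB, averaged 5.96 ± 3.08 CPM in Piezo Gel+US and 6.07 ± 1.56 CPM in Gel+US (SD, n = 3 each). It measured 3.15, 9.26 and 5.48 CPM in Piezo Gel+US replicates 1 to 3, against 7.52, 6.28 and 4.41 CPM in Gel+US replicates 1 to 3 (log2 fold change -0.024 with a 95% interval of -1.08 to 1.03). Both its lowest and its highest value belonged to Piezo Gel+US libraries, and without Piezo Gel+US replicate 2 the log2 fold change was -0.49. In limma-voom with quality weights the log2 fold change of Ptgs2 was -0.63, with an unadjusted p of 0.0498 and an adjusted p of 0.353. It was 1 of the 5 members with an unadjusted p below 0.05 in that fit, as were 14.1% of all genes.

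Other genes of these pathways, taken from lists and matched by symbol, gave no call either. Of 10 tested genes of receptor accessory and remaining Toll-like receptor proteins 5 were higher and 5 lower (median log2 fold change -0.071), of 19 further adaptors and kinases 4 higher and 15 lower (median -0.28), of 14 further inhibitors 8 higher and 6 lower (median 0.017), of 14 further inflammasome genes 7 and 7 (median 0.13), and of 17 NF-kB target genes 8 higher and 9 lower (median -0.042). In each list 0 genes had an adjusted p below 0.05 and 0 an unadjusted p below 0.05. The gene Il1b is in the inflammasome and the target list. The median of the further inhibitors was thus below the 0.34 of the 5 member inhibitors. Groups did not overlap for 1 of these genes, Peli1, a ubiquitin ligase of the Irak complex, named after its values were seen, where 6.81% of all genes did not overlap. It measured 45.6, 47 and 44.5 CPM in Piezo Gel+US replicates 1 to 3, against 47, 52.1 and 50.9 CPM in Gel+US replicates 1 to 3 (log2 fold change -0.13 with a 95% interval of -0.47 to 0.21). The separation is a near tie, as the highest Piezo Gel+US and the lowest Gel+US value both round to 47 CPM.

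Among those of lowest p in each list, Mefv, which encodes the inflammasome sensor pyrin, averaged 11.1 ± 3.72 CPM in Piezo Gel+US and 5.04 ± 3.22 CPM in Gel+US (SD, n = 3 each; log2 fold change 1.14 with a 95% interval of -0.10 to 2.38). The ATP-gated channel P2rx7, an upstream trigger of the inflammasome, averaged 54 ± 20.4 CPM in Piezo Gel+US and 36.2 ± 9.18 CPM in Gel+US (log2 fold change 0.58 with a 95% interval of -0.19 to 1.35). Traf2, a signalling adaptor of tumour necrosis factor receptors, averaged 22.5 ± 8.77 CPM in Piezo Gel+US and 15.9 ± 0.988 CPM in Gel+US (log2 fold change 0.50 with a 95% interval of -0.19 to 1.19). All 3 were highest in Piezo Gel+US replicate 2, as Nfkb1, Nfkb2, Rela and Relb were. Without that library the log2 fold changes were 0.22 for P2rx7 and 0.13 for Traf2. That of Mefv ran from 0.78 without Gel+US replicate 3 to 1.76 without Gel+US replicate 2. Lbp, the lipopolysaccharide binding protein, averaged 6.67 ± 2.3 CPM in Piezo Gel+US and 24.1 ± 27.2 CPM in Gel+US (log2 fold change -1.85 with a 95% interval of -4.57 to 0.87), and the interferon regulatory factor Irf7 50.6 ± 42.6 CPM in Piezo Gel+US and 165 ± 210 CPM in Gel+US (log2 fold change -1.70 with a 95% interval of -4.59 to 1.18). Both genes were highest in Gel+US replicate 2, with 54 CPM of Lbp and 404 CPM of Irf7, and without that library their log2 fold changes were -0.46 for Lbp and 0.16 for Irf7. The other genes of lowest p were Lamp5, Cyld, Tnip1, Cd83 and Vcam1, with log2 fold changes of -0.28, -0.37, 0.29, -0.34 and -0.25. The most abundant genes per length in these lists were the chaperone Hsp90b1 (231 TPM) and Lamp5 (98.5 TPM), Irf7 (117 TPM) and Ube2n (114 TPM), Tax1bp1 (368 TPM) and Tnip1 (47.4 TPM), Txnip (246 TPM) and Nek7 (108 TPM), and Sod2 (154 TPM) and Ccl5 (70.6 TPM), each the mean of 6 libraries. Of these the chemokine Ccl5 had the lowest fold change after Irf7 (log2 fold change -1.35 with a 95% interval of -4.38 to 1.68), with 68.4 CPM in Gel+US replicate 2. Without that library the log2 fold change of Ccl5 was 0.85.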

How the data were processed

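RNA-seq counts were analysed from 6 libraries of rat spinal cord lesion core, 3 Piezo Gel+US and 3 Gel+US, labelled as biological replicates. The authors deposited raw counts per gene with gene lengths (other columns hold names and positions). The submitters' processing notes name DESeq2 1.20.0, featureCounts 1.5.0-p3, HISAT2 2.0.5 and fastp 0.19.7, with no role or setting. Per the labels' protocols the libraries keep strand information, but whether counting used it, and the genome build, are not given in the sources used here, so overlapping genes may share reads. None of the table's gene identifiers occurs in the RefSeq table of GRCr8 (0 matches), and promoters were joined by symbol.

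The model across genes used R 4.3.3 and edgeR 4.0.16 (TMM factors, filterByExpr with minimum count 10 and minimum total 15, robust quasi-likelihood F test on group), and p-values were adjusted over 17066 genes. The common biological coefficient of variation was 0.382. Positive log2 fold changes mean higher in Piezo Gel+US, and 95% intervals come from the same fit. The fit was run on simulated data with independent libraries and the same biological coefficient of variation for all genes. As these libraries differ from that setting, the simulation cannot show how well the intervals hold here. CPM used TMM-scaled totals, and TPM the deposited length. Alternatives were DESeq2 1.42.0, limma 3.58.1 (voom with quality weights), other scaling factors, no filter, a replicate block and leaving out each library. Totals of at least 17212653 counts keep counting error small beside the spread between libraries except for the scarcest genes.

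Members, gene lists and marker lists were chosen with earlier results of these data known. The rule for named genes was that all members are named, with values in every library for receptors, subunits, inhibitors, inflammasome genes, the target, the 8 members of lowest p and the most abundant of each role, and by range or mean for others; other pathway genes are named when of the 2 lowest p or 2 highest TPM in their list. Deviations from group means correlated at 0.253, 0.296 and 0.251 between libraries numbered 1, 2 and 3. All exceed 0.1, the cut of the rule used to mark a pairing. Among libraries of unequal number, number 3 of Piezo Gel+US with number 1 of Gel+US also exceeded it, at 0.198. The remaining unequal combinations lay between -0.342 and -0.0408. Deviations within a group are tied by their shared mean, so these correlations constrain each other. The rule therefore cannot show that equal numbers pair the libraries, and no label gives the meaning of a number.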

Additional observations from a re-analysis of the deposited data

How the results depend on the processing

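The count of called members was 0 under every alternative run, as was the count over all genes. With the replicate number as a block 3 members (Nfkb2, Rela and Relb) had an unadjusted p below 0.05 (5.78% of all genes), the lowest adjusted p of a member was 0.855, the members' median was 0.0054 and 19 were higher. Limma-voom with quality weights had a members' median of 0.064 with 22 higher. Other scaling factors moved the median of all genes by less than 0.1 and left 18 members higher. With 1 library left out, the number of members higher in Piezo Gel+US ran from 11 to 27, their median from -0.19 to 0.27, and the number whose groups did not overlap from 0 to 9. The 9 came without Gel+US replicate 2, all higher in Piezo Gel+US, as were 13.9% of all genes. In those 6 fits 22 members changed sign and 15 did not, 7 of them lower and 8 higher in Piezo Gel+US. The log2 fold changes of those that changed sign ranged as follows: Tlr1 -0.51 to 0.36, Tlr2 -0.45 to 0.33, Tlr3 -0.50 to 0.10, Tlr5 -1.08 to 0.65, Tlr8 -1.85 to 0.22, Tlr9 -0.45 to 0.22, Cd14 -0.72 to 0.45, Myd88 -0.32 to 0.47, Tirap -0.025 to 0.27, Irak2 -0.13 to 0.27, Irak3 -0.61 to 0.12, Traf6 -0.023 to 0.46, Map3k7 -0.22 to 0.026, Ikbkb -0.025 to 0.37, Ikbkg -0.037 to 0.17, Nfkb1 -0.035 to 0.54, Rel -0.75 to 0.23, Nfkbib -0.12 to 0.14, Nfkbiz -0.19 to 0.47, Casp1 -0.45 to 0.29, Gsdmd -0.25 to 0.44, Ptgs2 -0.49 to 0.26. Signs also changed for Tlr9 under the block (0.013) and under limma-voom for Tlr1 0.14, Tlr2 0.041, Tlr5 0.38, Cd14 0.35, Map3k7 0.064, Nfkbib -0.12. The cause was not tested. The smallest count of a member was 1, for Tlr5 in Piezo Gel+US replicate 2, which was the library with the highest total (21436820 counts).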
